A study of Mus musculus with 12 samples.

Results

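Chemokines and chemokine receptors were followed in macrophages that had or lacked miR-210. The 31 genes, 12 CC ligands, 9 CXC ligands, the CX3C ligand Cx3cl1, 7 signalling receptors and 2 atypical receptors, were taken from a list of symbols matched to the Ensembl identifiers of the count tables, and all 31 were found among the 56941 genes listed. RNA was sequenced from 12 cultures of bone-marrow-derived macrophages of C57BL/6J mice, with 3 cultures for each pairing of genotype (WT or miR-210 KO) and state (M0 or M2). Bone marrow monocytes, purified by removal of other cells, were grown for 7 days with M-CSF from the supernatant of L929, a line of mouse fibroblasts. M2 cultures then received 20 ng/mL IL-4 for 72 hours, and M0 cultures were kept alongside without IL-4. The miR-210 KO mice carried a germline deletion, made by crossing a floxed miR-210 allele with Gata-1 Cre and bred from heterozygous parents together with the WT mice. The comparisons asked how IL-4 changed these genes in each genotype, and how the genotypes differed in each state.

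Chemokines are small secreted proteins that attract leukocytes by binding receptors coupled to G proteins, and they are named by the spacing of conserved cysteines (CC, CXC, CX3C). Macrophages release CC ligands that draw monocytes, and CXC ligands with an ELR motif that draw neutrophils. In IL-4-treated mouse macrophages Ccl17, Ccl22 and Ccl24 are known as induced ligands, while Ccl3, Ccl4, Ccl5 and Cxcl10 are better known from inflammatory activation. Atypical receptors bind chemokines without the usual G protein signalling.

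Library totals lay between 7930525 and 10167695 counts, and a count of 0 in a library allows up to 3 counts, which covers counting error only. Each group carried a separate batch name in the labels, and batch cannot be told apart from group. The labels do not say whether the 3 samples of a group came from separate animals, so p-values measure the spread between these samples. The library numbers used here come from the count tables and are not tied to samples. Mir210, the deleted gene, was counted 1, 3 and 5 times for WT M0 and 1, 2 and 1 times for WT M2, and had 0 counts in all miR-210 KO libraries. The 7 macrophage markers (Adgre1, Cd68, Csf1r, Itgam, Mertk, Fcgr1, Lyz2) summed to between 7244 and 9892 CPM (counts scaled to a common library size, TMM-normalized) in every library. Retnla, an IL-4 target, had 0 counts in all 6 M0 libraries and between 2161 and 4493 in the M2 libraries. The 7 lymphocyte markers summed to 0.446 CPM at most in any library. The library numbered 3 of miR-210 KO M0 stood apart: of the 10759 genes averaging over 5 CPM in its group, 29 lay more than 2 times above both other libraries, among them Cxcl1 and Cxcl2, while in the other 11 libraries this number was between 0 and 9. Results that rest on this library are given with and without it.

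Sequences are shown for Cxcl1, which is called between the genotypes further on, and for its neighbours Cxcl2 and Cxcl3. These neutrophil-attracting ligands, which lie with Ppbp and Pf4 in a stretch of 137 kb on chromosome 5, had the same 11 bases matching an NF-kB site on both strands in the window from 250 bases before to 50 bases after the start of the GENCODE canonical transcript (GRCm39, plus strand in all 3). The match, in capitals, began 61 bases before the start in Cxcl1 (chr5:91038844-91039143), 69 in Cxcl2 (chr5:91051480-91051779) and 75 in Cxcl3 (chr5:90933712-90934011).
Cxcl1: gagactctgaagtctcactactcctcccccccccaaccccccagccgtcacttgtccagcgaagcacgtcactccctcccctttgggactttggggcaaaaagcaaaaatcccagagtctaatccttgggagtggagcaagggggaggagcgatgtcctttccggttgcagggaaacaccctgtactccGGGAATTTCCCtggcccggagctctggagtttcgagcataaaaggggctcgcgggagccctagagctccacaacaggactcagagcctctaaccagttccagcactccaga
Cxcl2: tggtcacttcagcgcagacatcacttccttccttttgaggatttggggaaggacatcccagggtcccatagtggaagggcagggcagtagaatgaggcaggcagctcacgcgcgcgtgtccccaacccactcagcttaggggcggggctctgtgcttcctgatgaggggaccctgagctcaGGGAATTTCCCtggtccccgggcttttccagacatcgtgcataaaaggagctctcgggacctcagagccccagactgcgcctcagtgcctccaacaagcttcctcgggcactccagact
Cxcl3: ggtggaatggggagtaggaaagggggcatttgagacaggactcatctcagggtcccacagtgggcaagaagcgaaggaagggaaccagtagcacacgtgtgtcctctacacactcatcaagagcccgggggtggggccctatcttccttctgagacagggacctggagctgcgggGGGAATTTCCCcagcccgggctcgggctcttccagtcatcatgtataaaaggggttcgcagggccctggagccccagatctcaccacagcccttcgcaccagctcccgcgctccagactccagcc
An NF-kB match was found in 7 of the 31 member windows (22.6%), namely those of Ccl5, Ccl9, Cxcl1, Cxcl2, Cxcl3, Cxcl10 and Ccr3, and in 1060 of the 21770 windows of protein-coding genes (4.87%). NF-kB is the transcription factor family that inflammatory stimuli activate.

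STAT6 carries the IL-4 signal to the nucleus, and the letters TTCNNNNGAA, which read the same on both strands, are its preferred spacing. They occurred in 1 member window, that of Ccl17 (3.23% of members), and in 6.81% of all windows. The 10 bases in capitals began 148 bases before the Ccl17 start (chr8:95536825-95537124, GRCm39, plus strand).
Ccl17: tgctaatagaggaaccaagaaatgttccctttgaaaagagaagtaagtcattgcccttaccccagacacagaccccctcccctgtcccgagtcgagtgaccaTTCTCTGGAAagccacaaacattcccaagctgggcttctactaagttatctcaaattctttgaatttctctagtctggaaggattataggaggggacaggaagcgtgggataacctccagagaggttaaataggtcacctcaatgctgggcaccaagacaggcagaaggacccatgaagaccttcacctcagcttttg
The shorter spacing TTCNNNGAA, also palindromic and shared by other STAT proteins, was present in the windows of 5 members (Ccl2, Ccl12, Ccl17, Ccl24 and Cxcl14; 16.1%) and in 8.81% of all windows. These matches describe the letters of the windows and not binding.

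The mature mouse miR-210-3p (RefSeq), with its seed, bases 2 to 8, in capitals, is shown because it is what the miR-210 KO cells lacked, and because a match to it in a 3′ untranslated region is the usual mark of a candidate target.
mmu-miR-210-3p: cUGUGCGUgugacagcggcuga
A match to bases 2 to 8 (ACGCACA), or to bases 2 to 7 followed by A (CGCACAA), was found in the canonical 3′ untranslated region of 1 of the 31 members, Cxcl10, and in 4.33% of 20858 protein-coding genes. The Cxcl10 stretch with its match in capitals read as follows.
Cxcl10 site: gagtgaagccACGCACAcaccccggtg
Cxcl10 was a low gene in these cells, with 8, 17 and 13 counts for WT M0, 7, 5 and 8 for miR-210 KO M0, 4, 11 and 13 for WT M2 and 7, 4 and 3 for miR-210 KO M2.

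**Figure D1:**
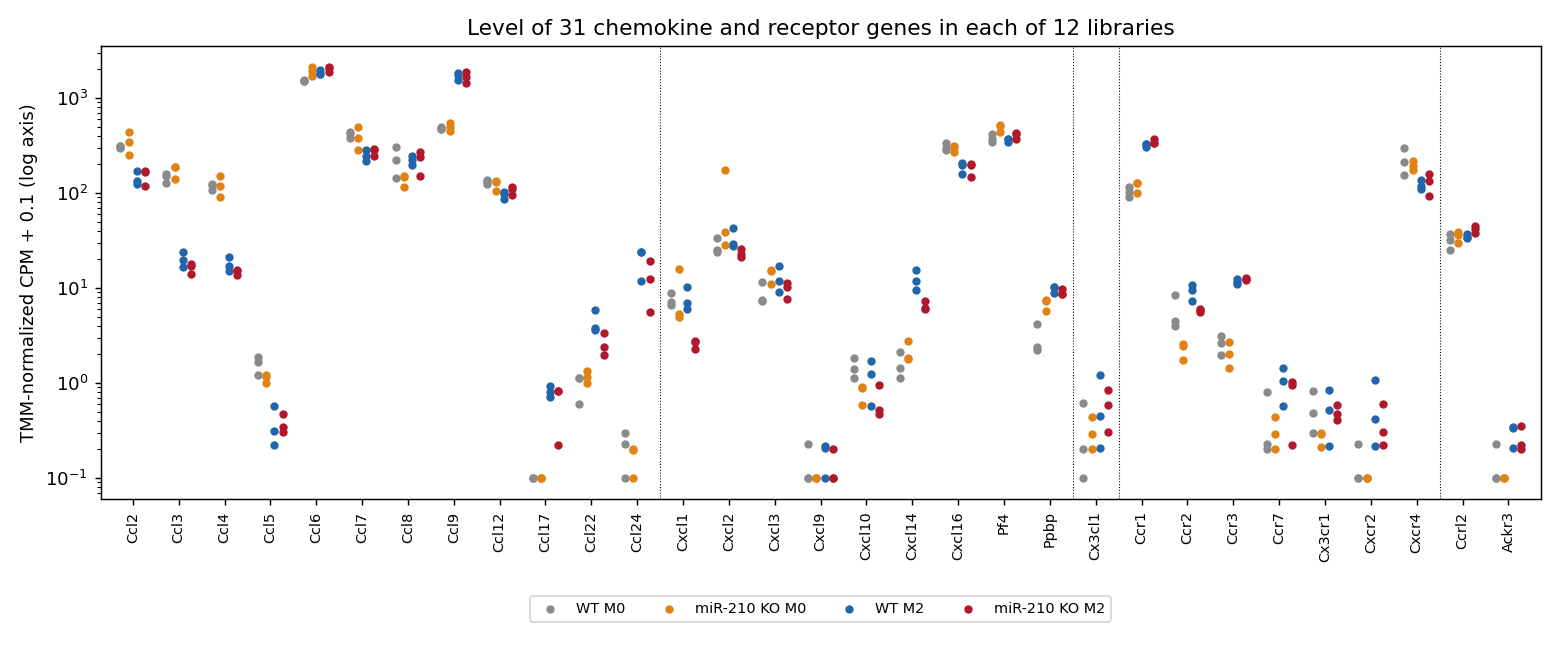
TMM-normalized CPM plus 0.1, on a log axis, of the 31 genes in each of the 12 libraries, coloured by group, with dotted lines between CC ligands, CXC ligands, the CX3C ligand, signalling receptors and atypical receptors. Ccl6, the highest gene, lay at 1507 CPM or above in every library, and Ccl17, Cxcl9, Cxcr2 and Ackr3 lay at or near 0 in M0.

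The members held 0.451 ± 0.0113% of all counts in WT M0, 0.496 ± 0.0575% in miR-210 KO M0, 0.542 ± 0.0268% in WT M2 and 0.561 ± 0.0473% in miR-210 KO M2 (SD, n = 3 each), and most of this came from CC ligands. Per kilobase of exon, the scale used to compare genes, Ccl6, a ligand of Ccr1, was the most abundant member in all 4 groups, at 840.0 ± 12.7 CPM per kb for WT M0 and 1017 ± 53.7 for WT M2 (SD, n = 3). Ccl7 followed in WT M0 with 518 ± 41.4 CPM per kb, and Ccl8 with 435 ± 158 did not differ from it beyond its spread. In WT M2 the second place was taken by Ccl9, at 549 ± 48.8 CPM per kb against 154 ± 3.18 for WT M0. Among the receptors Cxcr4 led in WT M0, with 121 ± 40.6 CPM per kb, and Ccr1 in WT M2, with 113 ± 5.49. All 31 members were accounted for: 24 passed the filter on low counts in the WT comparison of states, and Ccl17, Cxcl9, Cx3cl1, Ccr7, Cx3cr1, Cxcr2 and Ackr3 did not in any comparison.

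In WT macrophages IL-4 raised some chemokine genes and lowered others in about equal number. With edgeR's quasi-likelihood test (Benjamini-Hochberg (BH) adjustment over all genes tested, a call at an adjusted p under 0.05 and a fold change over 1.2 in either direction), 9 of the 24 members tested rose, where 22.1% of the 14266 genes tested did, and 8 fell, where 20.9% of all genes did. The median absolute log2 fold change was 0.80 over these members and 0.30 over all genes. In miR-210 KO macrophages 8 of 22 members rose, against 17.4% of 14331 genes, and 8 fell, against 16.4%, with a median absolute log2 fold change of 1.19 for members and 0.26 for all genes. By role, 4 of the 11 CC ligands tested in WT rose and 6 fell, 2 of the 8 CXC ligands rose and 1 fell, and 3 of the 4 signalling receptors rose and 1 fell. In miR-210 KO these numbers were 4 and 4 of 10 CC ligands, 1 and 3 of 7 CXC ligands, and 3 and 1 of 4 receptors. Calls in both genotypes had the same direction in 13 members: 7 rose (Ccl9, Ccl22, Ccl24, Cxcl14, Ccr1, Ccr2, Ccr3) and 6 fell (Ccl2, Ccl3, Ccl4, Ccl7, Cxcl16, Cxcr4). Called in WT and not in miR-210 KO were 4 (Ccl5, Ccl6, Ccl12, Ppbp), and the reverse held for 3 (Ccl8, Cxcl1, Cxcl2), while whether the response itself differed is tested further on. Without library 3 of miR-210 KO M0, 15 members were called in miR-210 KO, and the lost call was that of Ccl7. The 2 comparisons of states share no library. Of 30 members with at least 5 counts in WT, 9 lay higher in M2 and 8 lower with no overlap of libraries, against 23.7% and 23% of 20468 genes. In miR-210 KO 12 and 9 of 29 members did so, against 19.6% and 19.4% of 20440 genes. Among the called members, Ccl24 passed the filter on low counts only through its M2 libraries, and Ccl5 in WT only through its M0 libraries. Ccl22 in both genotypes and Cxcl14 in WT would not have passed it on their M0 libraries alone. In bulk RNA, fewer cells of a type and less RNA per cell cannot be told apart.

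**Figure D2:**
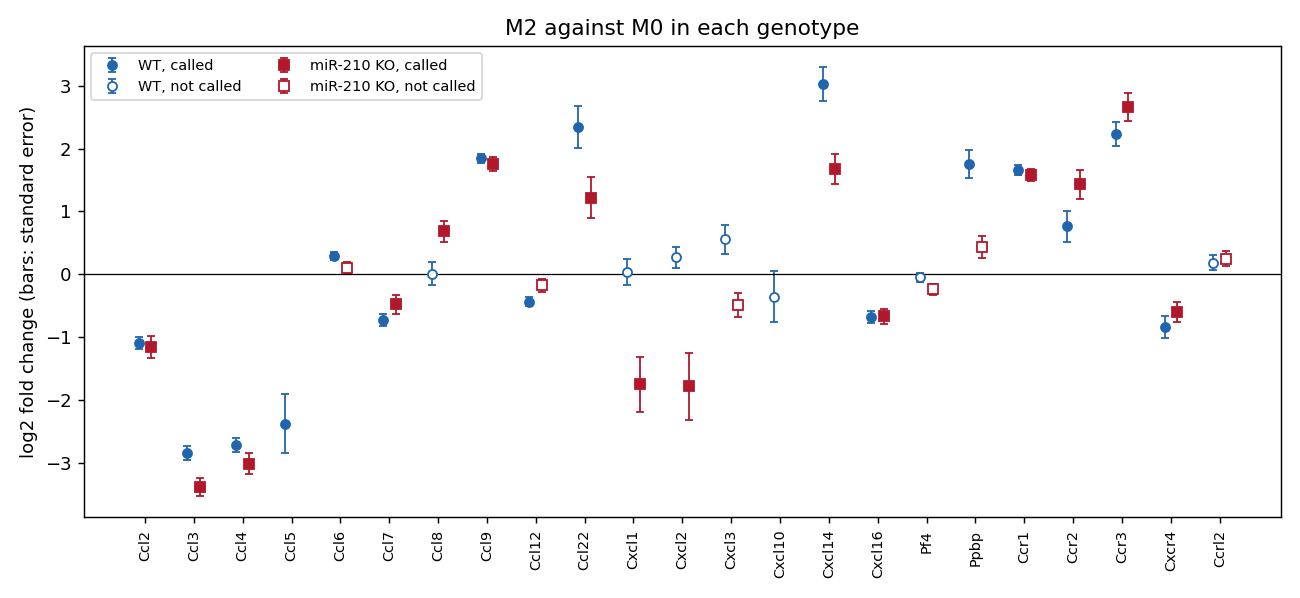
Log2 fold change of M2 against M0 for 23 of the members tested (bars: standard error), circles for WT and squares for miR-210 KO, filled where called. Ccl3, Ccl4 and Ccl2 lay below 0 and Ccl9, Ccr1 and Ccr3 above it in both genotypes, while Cxcl1 and Cxcl2 lay near 0 in WT and below it in miR-210 KO. Ccl24 is left out because its M0 libraries held 0 to 2 counts.

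The largest decreases were in Ccl3 and Ccl4, inflammatory ligands encoded side by side. Ccl3 stood at 149.7, 127 and 157 CPM in the WT M0 libraries and at 19.5, 16.6 and 23.7 for WT M2, and in miR-210 KO at 187, 141 and 189 for M0 and 17.7, 17.0 and 14.0 for M2. The M2 libraries all lay below the M0 libraries, 7.21-fold lower in WT (log2 fold change -2.85 ± 0.12, adjusted p = 3.99e-10) and 10.5-fold lower in miR-210 KO (-3.39 ± 0.14, adjusted p = 1.82e-09). Here and below the value after ± a log2 fold change is its standard error. Ccl4 read 123, 108 and 122 CPM for WT M0, 17.0, 15.2 and 21.2 for WT M2, 118, 91.1 and 152 for miR-210 KO M0 and 15.5, 15.0 and 13.6 for miR-210 KO M2. Its log2 fold change was -2.72 ± 0.11, adjusted p = 2.81e-10 in WT and -3.02 ± 0.17, adjusted p = 3.37e-08 in miR-210 KO, again with no overlap of the states. Ccl5, a lymphocyte- and monocyte-attracting ligand, was rare, with 14, 15 and 11 counts for WT M0 and 4, 2 and 1 for WT M2 (log2 fold change -2.38 ± 0.47, adjusted p = 0.000912). It passed the filter on low counts there only through its M0 libraries. In miR-210 KO it had 8, 11 and 11 counts for M0 and 2, 2 and 3 for M2, a 3.77-fold difference with an exact counting interval of 1.62 to 10.2, and it was not tested there.

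Ccl2, Ccl7 and Ccl12, ligands of Ccr2, sit together with Ccl8 in 81.2 kb of chromosome 11, and the first 3 of them fell in WT. Ccl2, the main monocyte attractant, had 311, 299 and 316 CPM for WT M0 and 172, 134 and 125 for WT M2, 2.13-fold lower (log2 fold change -1.09 ± 0.10, adjusted p = 8.01e-07). In miR-210 KO it had 342, 253 and 434 for M0 and 117, 172 and 166 for M2 (-1.16 ± 0.18, adjusted p = 0.000244), and no M2 library reached an M0 library in either genotype. Ccl7 fell from 418 ± 33.4 to 249 ± 32.8 CPM for WT (SD, n = 3 each), with a log2 fold change of -0.73 ± 0.09, adjusted p = 2.08e-05. In miR-210 KO, where library 3 of M0 was the highest, Ccl7 fell by 0.48 on the log2 scale (adjusted p = 0.0317), and without that library the value was -0.27 (adjusted p = 0.129). The call was also lost with the DESeq2 Wald test and without library 1 or 2 of miR-210 KO M2 (log2 fold change -0.41 and -0.54). The M2 and M0 libraries of Ccl7 overlapped there, at 247, 291 and 287 and 381, 286 and 498 CPM. Ccl12 fell in WT, from 131 ± 5.89 to 95.8 ± 7.78 CPM (SD, n = 3 each; -0.44 ± 0.07, adjusted p = 0.00026), and in miR-210 KO its value was -0.18 ± 0.11, adjusted p = 0.234, or -0.30 (adjusted p = 0.0197) without library 2 of miR-210 KO M0. Ccl8, the fourth gene of this cluster, had a log2 fold change of 0.01 ± 0.19, adjusted p = 0.976 in WT and rose in miR-210 KO (0.68 ± 0.17, adjusted p = 0.00725). Its libraries read 307, 144 and 222 CPM for WT M0, 199, 245 and 225 for WT M2, 148, 116 and 149.6 for miR-210 KO M0 and 268, 237 and 152 for miR-210 KO M2, and the WT M0 libraries spanned the range of all the others but the lowest of miR-210 KO M0.

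Ccl9 and Ccl6, neighbouring ligands of Ccr1, lie in the second chromosome 11 cluster between Ccl5 and Ccl3. Ccl9 had 489.9, 473 and 473 CPM for WT M0 and 1541, 1836 and 1751 for WT M2, 3.60-fold higher (log2 fold change 1.85 ± 0.07, adjusted p = 3.51e-10). In miR-210 KO the rise was 3.37-fold (1.75 ± 0.11, adjusted p = 5.34e-08), from 546, 454 and 494 to 1879, 1669 and 1433 CPM. The states were far apart in both genotypes and did not overlap. Ccl6 rose slightly in WT, from 1522, 1552 and 1507 to 1793, 1961 and 1791 CPM (0.29 ± 0.07, adjusted p = 0.00268), and this call was lost when library 2 of WT M2 was left out, where the log2 fold change was 0.25. In miR-210 KO Ccl6 had 1909 ± 209 CPM for M0 and 2028 ± 129 for M2 (SD, n = 3 each; 0.10 ± 0.09, adjusted p = 0.421).

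Of the ligands known for IL-4 induction, Ccl24 and Ccl22 were called higher from very low levels and Ccl17 was too low to be tested. Ccl24, an attractant of eosinophils through Ccr3, had 1, 0 and 2 counts for WT M0 and 101, 230 and 195 for WT M2, and 0, 1 and 1 and 157, 119 and 44 for miR-210 KO. The ratio of M2 to M0 was 182 in WT (exact 95% counting interval 62.1 to 888) and 182 in miR-210 KO (interval 49.97 to 1509). Both were called with edgeR (adjusted p = 6.27e-08 and 4.28e-06). Ccl24 entered these tests only through its M2 libraries, where it was high, so the calls are not separate support for the rise. Within M2 the libraries spread widely, from 11.8 to 24.1 CPM in WT and from 5.48 to 19.2 in miR-210 KO. Ccl22, a ligand of Ccr4, read 1.02, 1.03 and 0.502 CPM for WT M0, 3.51, 3.66 and 5.78 for WT M2, 1.23, 1.06 and 0.900 for miR-210 KO M0 and 2.32, 1.87 and 3.24 for miR-210 KO M2. It rose 5.08-fold in WT (2.35 ± 0.33, adjusted p = 5.4e-05) and 2.33-fold in miR-210 KO (1.22 ± 0.32, adjusted p = 0.0104), the latter call being lost with the DESeq2 Wald test (adjusted p = 0.0513) and without library 3 of miR-210 KO M2 (adjusted p = 0.0597). In neither genotype would the M0 libraries of Ccl22 alone have passed the filter on low counts. These calls too are therefore not separate support for the rise. Ccl17, the second Ccr4 ligand, next to Cx3cl1 and Ccl22 in a stretch of 67.4 kb on chromosome 8, had 0 counts in all 6 M0 libraries. It had 6, 8 and 5 for WT M2 and 6, 7 and 1 for miR-210 KO M2, at least 2.17-fold and 1.71-fold higher than the limit of 3 counts a library, and it was not tested. Ccl17 and Ccl22 are also made by dendritic cells: the 6 dendritic cell markers summed to between 0.413 and 1.12 CPM in M0 and between 10.2 and 18.0 in M2, with Siglech and Cd209a at 0 in both M0 groups and in miR-210 KO M2, and their part in the result was not tested. Only 1 of these 6 markers passed the filter on low counts, and it rose in both genotypes. It would not have passed on its M0 libraries alone, so its calls are not separate support for a rise.

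Among the CXC ligands, Cxcl14, a broadly expressed ligand that attracts myeloid cells, rose the most. It had 1.02, 1.34 and 2.01 CPM for WT M0 and 11.8, 9.42 and 15.5 for WT M2, 8.17-fold higher (log2 fold change 3.03 ± 0.27, adjusted p = 6.01e-07). On its WT M0 libraries alone Cxcl14 would not have passed the filter on low counts. The WT call is therefore not separate support for the rise. In miR-210 KO it went from 2.68, 1.74 and 1.70 to 7.20, 5.92 and 6.10 CPM, 3.19-fold higher (1.67 ± 0.24, adjusted p = 0.000141). Cxcl16, a transmembrane ligand of Cxcr6 that also binds oxidized lipoprotein, fell in both genotypes, from 305 ± 29.7 to 189 ± 26.0 CPM for WT and from 295 ± 23.3 to 183 ± 30.7 for miR-210 KO (SD, n = 3 each). Its log2 fold changes were -0.68 ± 0.10, adjusted p = 5.39e-05 in WT and -0.67 ± 0.12, adjusted p = 0.000545 in miR-210 KO. Ppbp and Pf4, platelet chemokines that some macrophages also express, are adjacent genes. Ppbp rose in WT from 2.29, 4.13 and 2.11 to 10.1, 8.69 and 10.2 CPM (1.75 ± 0.23, adjusted p = 2.5e-05), while in miR-210 KO it had 7.25, 5.60 and 7.30 for M0 and 8.55, 9.56 and 8.60 for M2 (0.43 ± 0.17, adjusted p = 0.0745). Pf4 had 378 ± 37.5 CPM for WT M0 and 362 ± 12.6 for WT M2, and 487 ± 45.4 and 407 ± 30.4 for miR-210 KO (SD, n = 3 each). Its log2 fold changes were -0.05 ± 0.08, adjusted p = 0.610 in WT and -0.24 ± 0.09, adjusted p = 0.0557 in miR-210 KO, where it fell without library 2 of M0 (-0.33, adjusted p = 0.00393). The 6 megakaryocyte and platelet markers summed to 8.70 CPM at most in any library, with Gp1bb at 0 throughout, and to between 4.99 and 7.23 CPM in M2.

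Cxcl1, Cxcl2 and Cxcl3, the genes with the shared NF-kB match, changed with IL-4 in miR-210 KO or in neither genotype. Cxcl1 had 7.01, 8.77 and 6.53 CPM for WT M0 and 6.79, 5.97 and 10.2 for WT M2 (0.04 ± 0.21, adjusted p = 0.900). In miR-210 KO it had 5.25, 4.83 and 15.6 for M0 and 2.20, 2.70 and 2.62 for M2, a log2 fold change of -1.75 ± 0.44, adjusted p = 0.00717. Every miR-210 KO M2 library lay below every other library of the 12, and without library 3 of miR-210 KO M0 the log2 fold change was -0.99 (adjusted p = 0.00868). Cxcl2 had 24.1, 33.4 and 24.8 CPM for WT M0, 27.3, 29.3 and 42.7 for WT M2, 39.1, 28.1 and 174 for miR-210 KO M0 and 20.9, 25.3 and 22.9 for miR-210 KO M2. Its fall in miR-210 KO, -1.78 ± 0.53, adjusted p = 0.0198, rested in size on library 3 of M0, without which it was -0.53 (adjusted p = 0.0198), and it was not called with the DESeq2 Wald test or without library 1 of miR-210 KO M2 (adjusted p = 0.0722). The WT value was 0.27 ± 0.16, adjusted p = 0.195, and 0.44 (adjusted p = 0.0281) without library 2 of WT M0. Cxcl3 gave 0.56 ± 0.23, adjusted p = 0.0623 in WT and -0.49 ± 0.19, adjusted p = 0.0616 in miR-210 KO, values of opposite sign that did not pass. Cxcl3 passed in WT without library 1 of M0 (0.79, adjusted p = 0.0129) or of M2 (0.74, adjusted p = 0.0203), and in miR-210 KO without library 2 of M0 (-0.65, adjusted p = 0.00912). It stayed uncalled in 4 of the 6 leave-one-out fits in WT and in 5 of 6 in miR-210 KO. Without library 3 of miR-210 KO M0 the value was -0.41 (adjusted p = 0.168). Its libraries read 11.6, 7.33 and 7.23 CPM for WT M0, 9.01, 11.7 and 17.1 for WT M2, 15.1, 10.8 and 15.4 for miR-210 KO M0 and 10.3, 11.1 and 7.48 for miR-210 KO M2. Of the 50-base stretches of the canonical transcripts, 5.74% of those of Cxcl2 and 6.31% of those of Cxcl3 were shared between these genes, so a small part of their reads could count for either or neither.

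Cxcl10, a ligand of Cxcr3, gave -0.35 ± 0.40, adjusted p = 0.495 in WT and was too low to be tested in miR-210 KO. Cxcl9, another Cxcr3 ligand, had at most 1 count in any library. Cx3cl1, the membrane-bound ligand of Cx3cr1, had 0, 5 and 1 counts for WT M0, 3, 2 and 1 for miR-210 KO M0, 3, 1 and 9 for WT M2 and 4, 2 and 6 for miR-210 KO M2, and was not tested.

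Ccr1, Ccr3 and Ccr2, neighbouring receptor genes on chromosome 9, rose with IL-4. Ccr1, the receptor of Ccl3, Ccl6 and Ccl9, had 115, 103 and 91.0 CPM for WT M0 and 329.8, 330.4 and 303 for WT M2, 3.15-fold higher (1.66 ± 0.08, adjusted p = 2.19e-09). In miR-210 KO it rose from 126, 99.8 and 127 to 334, 370.3 and 338 CPM (1.58 ± 0.10, adjusted p = 8.55e-08). Ccr3, the receptor of Ccl24, went from 20, 18 and 30 to 94, 117 and 94 counts for WT (2.24 ± 0.19, adjusted p = 4.19e-07) and from 17, 14 and 26 to 104, 115 and 98 for miR-210 KO (2.67 ± 0.22, adjusted p = 9.1e-07). Of the 5 eosinophil markers, Prg3 and Ear6 were at 0 in all groups and the summed level rose from at most 0.502 CPM in M0 to between 4.11 and 5.13 in M2, of which the part in Ccr3 was not tested. Only 1 of these 5 passed the filter on low counts, solely through its M2 libraries, and it rose in both genotypes. The summed level of the 6 mast cell and basophil markers went from at most 0.200 CPM in M0 to between 2.49 and 4.56 in M2. Of these 6, 1 passed the filter, also solely through its M2 libraries, and rose in both genotypes. The calls of these eosinophil and mast cell markers are therefore not separate support for a rise. Ms4a2 and Prss34 were at 0 in both M2 groups. Ccr2, the receptor of Ccl2 that marks inflammatory monocytes, had 8.29, 3.92 and 4.42 CPM for WT M0, 7.25, 10.7 and 9.35 for WT M2, 2.34, 1.64 and 2.50 for miR-210 KO M0 and 5.49, 5.82 and 5.98 for miR-210 KO M2. Its rise was 1.43 ± 0.23, adjusted p = 0.000348 in miR-210 KO, where the states did not overlap, and 0.76 ± 0.25, adjusted p = 0.0215 in WT, where they did and where the call was lost without library 2 or 3 of WT M0 or library 2 or 3 of WT M2, with log2 fold changes between 0.57 and 0.75 (adjusted p between 0.0556 and 0.0973). The canonical Ccr2 transcript shared 2.31% of its 50-base stretches with other genes.

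Cxcr4, the receptor of Cxcl12 and a retention signal of the bone marrow, fell. It had 299.8, 153 and 209.6 CPM for WT M0 and 119, 137 and 109 for WT M2 (-0.84 ± 0.18, adjusted p = 0.00144), and 219.6, 175 and 195 and 157, 133 and 91.8 for miR-210 KO (-0.60 ± 0.16, adjusted p = 0.00896). Ccrl2, an atypical receptor that presents chemerin, had 31.3 ± 5.97 CPM for WT M0, 35.0 ± 1.91 for WT M2, 35.2 ± 4.75 for miR-210 KO M0 and 41.2 ± 3.53 for miR-210 KO M2 (SD, n = 3 each), and passed in neither genotype (0.18 ± 0.12, adjusted p = 0.230 in WT and 0.25 ± 0.12, adjusted p = 0.118 in miR-210 KO) except in WT without library 1 of M0 (0.31, adjusted p = 0.0426). The other receptors were scarce. Ccr7, the lymph-node homing receptor, was counted 1, 1 and 7 times for WT M0, 4, 9 and 11 for WT M2, 3, 2 and 1 for miR-210 KO M0 and 7, 9 and 1 for miR-210 KO M2. Cx3cr1, the receptor of Cx3cl1, was counted 3, 7 and 2 times for WT M0, 1, 4 and 6 for WT M2, 1, 2 and 2 for miR-210 KO M0 and 4, 3 and 3 for miR-210 KO M2. Cxcr2, the receptor of Cxcl1 and Cxcl2, was counted 1, 0 and 0 times for WT M0, 1, 3 and 8 for WT M2, 0 times in all miR-210 KO M0 libraries and 1, 2 and 4 for miR-210 KO M2. Ackr3, a scavenger of Cxcl12, was counted 1, 0 and 0 times for WT M0, 2, 1 and 2 for WT M2, 0 times in all miR-210 KO M0 libraries and 1, 1 and 2 for miR-210 KO M2. None of these 4 receptors was tested. The canonical Cxcr2 transcript shared 5.87% of its 50-base stretches with other genes. The 9 neutrophil markers summed to between 98.1 and 119 CPM in M0 and between 134 and 183 in M2, with Ly6g at 0 in all groups, and their part in the Cxcr2 counts was not tested. Only 2 of these 9 markers passed the filter on low counts, of which 2 rose in WT and 1 in miR-210 KO. S100a9 and Ngp were at 0 in both miR-210 KO groups.

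Between the genotypes far fewer members differed. In M0, edgeR called 0 of the 22 members tested in either direction, where 0.22% of 14089 genes were called higher and 0.241% lower in miR-210 KO. At an unadjusted p under 0.05 there were 7 members, 5 higher and 2 lower, and 1410 genes, and the DESeq2 Wald test called 2 members, Ppbp and Ccr2. The 6 fibroblast markers, genes of a cell type that also makes chemokines, summed to between 0.904 and 1.24 CPM in WT M0 and between 1.79 and 2.30 in miR-210 KO M0, and to at most 0.872 in M2, and their part was not tested. The median absolute log2 fold change was 0.27 over members and 0.12 over all genes. In M2, 2 of 22 members were called, both lower in miR-210 KO (Cxcl1 and Cxcl14), where 0.408% of 13980 genes were called higher and 0.572% lower. At an unadjusted p under 0.05 there were 10 members, 4 higher and 6 lower, and 1498 genes, and the median absolute log2 fold change was 0.17 over members and 0.09 over all genes.

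**Figure D3:**
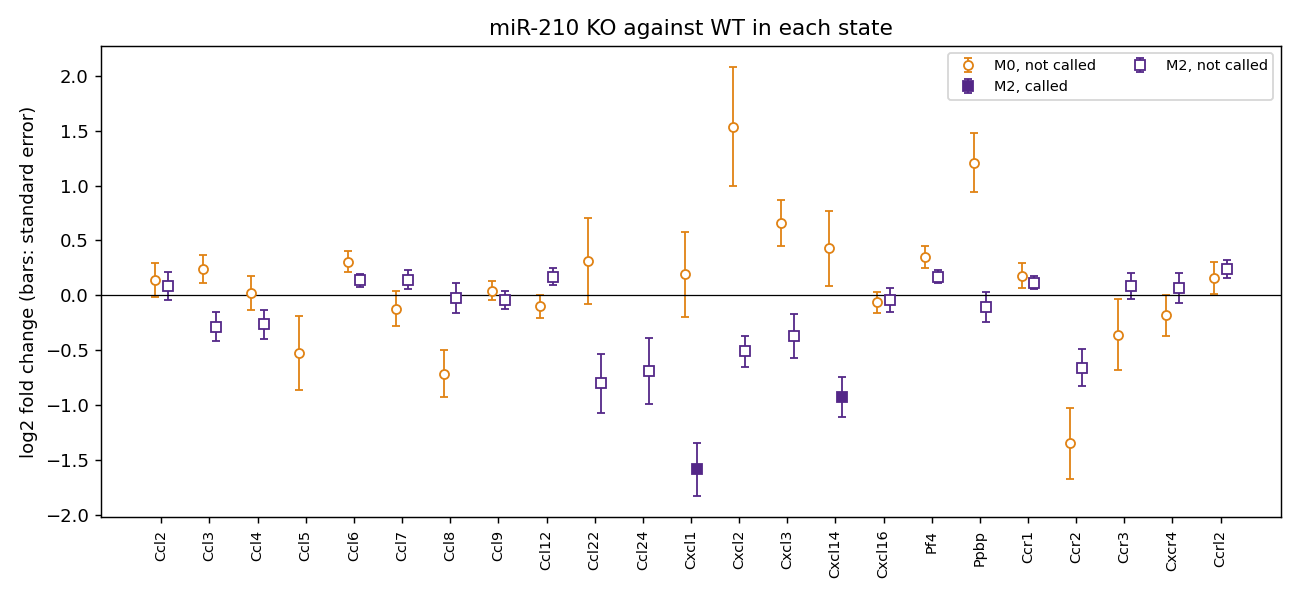
Log2 fold change of miR-210 KO against WT for the members tested (bars: standard error), circles for M0 and squares for M2, filled where called. Cxcl1 and Cxcl14 in M2 are the only filled symbols, Ppbp and Cxcl2 lie highest in M0 and Ccr2 lowest.

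Cxcl1 (ENSMUSG00000029380, chr5:91039094-91040974, plus strand, GRCm39) was lower in miR-210 KO M2 than in WT M2, at 18, 26 and 21 counts against 58, 57 and 83 (-1.59 ± 0.24, adjusted p = 0.00261). The call held in all 6 leave-one-out fits, with adjusted p between 0.000908 and 0.0340. It was lost only in the fit of all 12 libraries (log2 fold change -1.59, adjusted p = 0.163), for a reason that was not tested. Cxcl14 (ENSMUSG00000021508, chr13:56436352-56444603, minus strand) was 1.90-fold lower, at 59, 57 and 49 counts against 101, 90 and 126 (-0.92 ± 0.18, adjusted p = 0.0227), and no library of one genotype reached the other. That call was lost without library 1 or 3 of WT M2 or library 1 or 2 of miR-210 KO M2, with log2 fold changes between -1.01 and -0.72 (adjusted p between 0.0558 and 0.173), and in the fit of all 12 libraries (adjusted p = 0.0724). In M0 neither gene was called, with 0.19 ± 0.39, adjusted p = 0.914 for Cxcl1 and 0.43 ± 0.34, adjusted p = 0.741 for Cxcl14. The Cxcl1 value in M0 turned to -0.58 (adjusted p = 0.515) without library 3 of miR-210 KO M0, whose other libraries lay below every WT M0 library.

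Other ligands and receptors showed differences in M2 that did not pass the adjustment. Ccl22 gave -0.80 ± 0.27, adjusted p = 0.231, with every miR-210 KO library below every WT library. Cxcl2 gave -0.51 ± 0.14, adjusted p = 0.123, also without overlap. Of 30 members with at least 5 counts, 5 lay wholly lower in miR-210 KO M2 (Ccl22, Cxcl1, Cxcl2, Cxcl14, Ccr2) and 3 wholly higher (Pf4, Ccr1, Ccrl2). Of 20316 such genes, 7.64% lay wholly lower and 7.06% wholly higher. Ccl24 gave -0.69 ± 0.30, adjusted p = 0.412, with overlapping libraries. Ccr2 gave -0.66 ± 0.17, adjusted p = 0.0876, from 9.09 ± 1.73 CPM for WT M2 to 5.76 ± 0.247 for miR-210 KO M2 (SD, n = 3 each) and with no overlap, and passed without library 1 of WT M2 (log2 fold change -0.79, adjusted p = 0.0482). On the other side of 0 lay Ccl6 (0.14 ± 0.06, adjusted p = 0.368), Ccl12 (0.17 ± 0.08, adjusted p = 0.458), Pf4 (0.17 ± 0.06, adjusted p = 0.278) and Ccrl2 (0.24 ± 0.09, adjusted p = 0.281). The other 12 members tested had log2 fold changes between -0.37 (Cxcl3) and 0.14 (Ccl7).

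In M0 the lowest adjusted p was that of Ppbp, 2.31-fold higher in miR-210 KO at 65, 58 and 73 counts against 18, 40 and 21 (1.21 ± 0.27, adjusted p = 0.0949). All miR-210 KO libraries lay above all WT libraries, and the adjusted p was 0.0198 with the DESeq2 Wald test, 0.0104 in the fit of all 12 libraries and 0.00912 without library 2 of WT M0. Ccr2 was 2.55-fold lower, at 21, 17 and 25 counts against 65, 38 and 44 (-1.35 ± 0.33, adjusted p = 0.118), again with no overlap. It was called under the same 3 settings (adjusted p = 0.0267, 0.0235 and 0.0287). Without library 3 of miR-210 KO M0 neither was called (Ppbp 1.14, adjusted p = 0.240, and Ccr2 -1.48, adjusted p = 0.217). Over all settings the highest adjusted p was 0.420 for Ppbp and 0.479 for Ccr2. Of 27 members with at least 5 counts, 3 lay wholly higher in miR-210 KO M0 (Ccl6, Pf4, Ppbp) and 4 wholly lower (Ccl5, Cxcl10, Ccr2, Cx3cr1). Of 20227 such genes, 7.8% lay wholly higher and 6.13% wholly lower. The Ppbp values in M0 and between the WT states share the WT M0 libraries. The Ccr2 genotype values in M0 and in M2 come from separate libraries, and both were negative. Cxcl2 gave 1.54 ± 0.54, adjusted p = 0.329, and 0.27 (adjusted p = 0.837) without library 3 of miR-210 KO M0. Ccl8 gave -0.71 ± 0.21, adjusted p = 0.227 with overlapping libraries, and passed without library 2 of WT M0 (log2 fold change -0.94, adjusted p = 0.00381). Without library 3 of miR-210 KO M0 its value was -0.78 (adjusted p = 0.354). Cxcl3 (0.66 ± 0.21, adjusted p = 0.272), Pf4 (0.35 ± 0.10, adjusted p = 0.222) and Ccl6 (0.31 ± 0.10, adjusted p = 0.255) were higher at an unadjusted p under 0.05, and the other 15 members lay between -0.53 (Ccl5) and 0.43 (Cxcl14). Of these 15, Ccl2, Ccl4 and Cxcl1 turned in sign without library 3 of miR-210 KO M0.

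**Figure D4:**
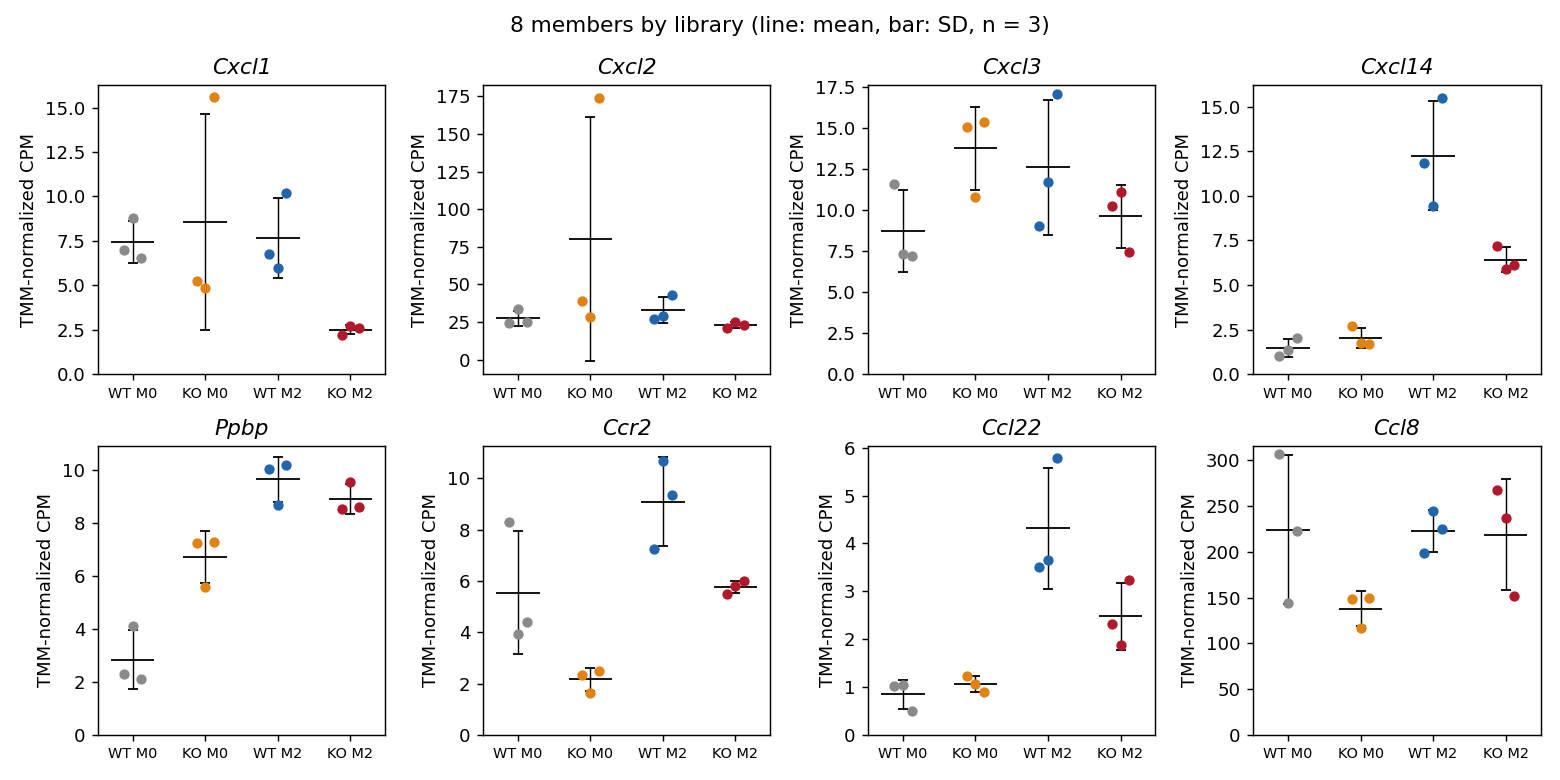
TMM-normalized CPM of 8 members in each library, with the group mean as a line and the SD as a bar (n = 3). Library 3 of miR-210 KO M0 is the high point of Cxcl1 (15.6 CPM) and Cxcl2 (174 CPM), the miR-210 KO M2 libraries of Cxcl1 lie between 2.20 and 2.70 CPM, and the WT M0 libraries of Ppbp lie below all others.

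Whether the IL-4 response differed by genotype was tested as an interaction over all 12 libraries. With edgeR's quasi-likelihood test 0 of 24 members and 0 of 14825 genes passed (0%), 8 members and 1327 genes had an unadjusted p under 0.05, and the DESeq2 Wald test called 83 genes, Ppbp among them. Of the 8 members, 7 had a lower M2 to M0 ratio in miR-210 KO and 1, Ccl8, a higher one. The lowest adjusted p was that of Ppbp, with a difference of the log2 fold changes of -1.32 ± 0.29, adjusted p = 0.121. This difference passed with DESeq2 (adjusted p = 0.0219), without library 2 of WT M0 (adjusted p = 0.00940) and without library 2 of miR-210 KO M0 (adjusted p = 0.0360). It did not pass without library 3 of miR-210 KO M0 (-1.26, adjusted p = 0.203). Cxcl14 gave -1.35 ± 0.40, adjusted p = 0.255, Cxcl1 -1.79 ± 0.54, adjusted p = 0.279 and Cxcl2 -2.05 ± 0.68, adjusted p = 0.326. Without library 3 of miR-210 KO M0 the Cxcl1 difference was -1.02 and the Cxcl2 difference -0.79. Cxcl3 (-1.04 ± 0.33, adjusted p = 0.316), Ccl22 (-1.12 ± 0.50, adjusted p = 0.524), Ccl3 (-0.53 ± 0.20, adjusted p = 0.416) and Ccl8 (0.68 ± 0.30, adjusted p = 0.524) completed the 8. Since no member passed, calls made in one genotype and not in the other are not shown to differ between them.

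Genes that act with chemokines were counted from lists of other ligands and receptors, signalling, cleavage and presentation on glycosaminoglycans. Over all genes tested, 22.1% rose and 20.9% fell in WT, and 17.4% rose and 16.4% fell in miR-210 KO. Of 16 other ligands 4 were tested in WT and 1 rose with IL-4, Ccl28, a mucosal ligand with 0, 1 and 1 counts for WT M0 and 22, 23 and 24 for WT M2, a ratio of 35.9 (exact 95% counting interval 9.57 to 302). Ccl28 passed the filter on low counts there only through its M2 libraries. In miR-210 KO Ccl28 rose too, and Cxcl5, an ELR ligand encoded beside Ppbp, fell (-2.25 ± 0.27, adjusted p = 2.71e-05). Among the other receptors Cxcr3, the receptor of Cxcl9 and Cxcl10, fell in WT (-3.72 ± 0.30, adjusted p = 2.27e-07) and in miR-210 KO (-2.76 ± 0.31, adjusted p = 1.32e-05).

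Of the 37 signalling genes tested in WT, 6 rose and 17 fell, where 22.1% of all genes tested rose and 20.9% fell. Rgs16 (4.79 ± 0.37, adjusted p = 1.79e-07), Rgs1 (1.10 ± 0.10, adjusted p = 5.9e-07) and Rgs2 (0.78 ± 0.07, adjusted p = 1.45e-06), which switch off G protein signalling, had the largest rises, and the G protein subunit Gng2 (-1.39 ± 0.06, adjusted p = 6.58e-10), the kinase Lyn (-1.26 ± 0.06, adjusted p = 1.82e-09) and the arrestin Arrb2 (-1.08 ± 0.07, adjusted p = 4.18e-08) the largest falls. In miR-210 KO 6 rose and 18 fell, where 17.4% of all genes tested rose and 16.4% fell. Of the cleavage and shedding genes, 11 of 15 were tested and 6 rose, led by Ctsk (2.64 ± 0.19, adjusted p = 8.55e-08), Mmp9 (2.35 ± 0.22, adjusted p = 1.08e-06) and Mmp12 (2.14 ± 0.10, adjusted p = 1.01e-09), while Cpd, a carboxypeptidase, fell (-1.85 ± 0.14, adjusted p = 1.01e-07). In miR-210 KO 7 rose and 3 fell. Of 9 tested genes of glycosaminoglycan presentation 4 rose and 3 fell in either genotype, with the core proteins Sdc1 (3.23 ± 0.16, adjusted p = 1.89e-09), Srgn (1.81 ± 0.06, adjusted p = 6.55e-11) and Sdc4 (1.16 ± 0.07, adjusted p = 1.21e-08) highest and Sdc3 (-1.36 ± 0.07, adjusted p = 3.77e-09), Ext1 (-0.36 ± 0.07, adjusted p = 0.000807) and Ext2 (-0.28 ± 0.08, adjusted p = 0.00798) lowest in WT. Between the genotypes 1 gene of these lists was called in M0, Mmp14, higher in miR-210 KO (0.57 ± 0.09, adjusted p = 0.0277), and 2 in M2, Rgs1, lower (-0.56 ± 0.09, adjusted p = 0.00359), and Ndst1, higher (0.29 ± 0.06, adjusted p = 0.0368). Over all genes tested, 0.22% were called higher and 0.241% lower in M0, and 0.408% and 0.572% in M2. Without library 3 of miR-210 KO M0, Mmp14 was not called. Rgs1 read 146, 114 and 418 CPM for miR-210 KO M0, high in the same library 3 as Cxcl2.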

How the data were processed

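Stranded libraries of RNA depleted of ribosomal RNA, from 12 cultures and 3 a group, were analysed from the tables deposited per pair of groups. Per the labels and the study's methods the authors trimmed reads with Trimmomatic, removed duplicates with Picard, aligned the rest to GRCm39 (STAR) and ran featureCounts with strand taken into account. Removing duplicates can lower the values of highly expressed short genes. The deposited counts are whole numbers that are not normalized, and the tables that the authors made with DESeq2 hold a signal, counts divided by size factors, used here for levels only as an alternative. Columns of the authors' own comparisons hold fold changes and p-values and were not used.

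Of 56941 Ensembl identifiers 56323 matched the GENCODE annotation (release 39, GRCm39) and 618 did not. Depth was 7930525 to 10167695 counts a library, which allows about 3 counts where 0 were seen. Each pair of groups was fitted alone with edgeR 4.0.16 in R 4.3.3 (TMM factors, filterByExpr, quasi-likelihood test, Benjamini-Hochberg adjustment over all genes tested), after the study's pairwise design, and the interaction over all 12 libraries. A call needed an adjusted p under 0.05 and a fold change over 1.2, or the p alone for the interaction. The standard error is the absolute log2 fold change divided by the square root of F. CPM are TMM-normalized. The main edgeR fits and the DESeq2 fits, of each pair and of the interaction, were tested on simulated data. The other alternatives were not. Count ratios carry exact 95% intervals (Python 3.11.15, SciPy 1.17.1), which cover counting error only.

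Alternatives were the DESeq2 1.42.0 Wald test, DESeq2 size factors, upper-quartile factors, no filter, CPM over 1 in at least 3 libraries, 1 fit of all 12 libraries, a fold limit of 1 on the log2 scale, an average normalized count over 10 in protein-coding genes, and each library left out. A fit with the number in the column names as a replicate block was added after seeing the data.

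Every member is named, those too low to be tested by their counts. Changes between genotypes are given one by one where called or at an unadjusted p under 0.05. Of each other pathway list, up to 3 called genes of the largest change in each direction in WT are named, and all called between genotypes. Cxcl5 was named after its values were seen, and 1 listed gene is not reported here. The members and lists were chosen with earlier results of these data known.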

Additional observations from a re-analysis of the deposited data

How the results depend on the processing

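The number of members called between states in WT was 17 and became 11 with a log2 fold limit of 1, and in miR-210 KO no alternative moved it by more than 1.5 times. Between genotypes the number called was 0 in M0, 2 with the DESeq2 Wald test, 2 in the fit of all 12 libraries and 7 without the filter. In M2 it was 2, and 0 in the fit of all 12 libraries, 1 with the log2 fold limit of 1 and 6 without the filter. For the interaction it was 0, 1 with DESeq2 and 7 without the filter. With each library left out in turn it lay between 15 and 19 in WT, 15 and 19 in miR-210 KO, 0 and 3 in M0, 1 and 2 in M2 and 0 and 1 for the interaction, the 3 in M0 coming without library 2 of WT M0. Among the log2 fold changes given one by one, the direction turned for 4, none of them called. Between states in WT, Ccl8 was -0.0086 with upper-quartile factors and between -0.23 and 0.29 with a library left out, Cxcl1 between -0.21 and 0.20, and Pf4 between -0.12 and 0.026, and between genotypes in M0 Cxcl1 lay between -0.58 and 0.49. Of the members given by range, 0 to 3 of 15 in M0 and 0 to 3 of 12 in M2 turned with a library left out. Over all genes, 65 were called in M0 (207 with DESeq2, 248 in the fit of all 12 libraries, 532 without the filter, 20 to 302 with a library left out), 137 in M2 (60 in the fit of all 12 libraries, 360 without the filter, 53 to 215 with a library left out) and 0 for the interaction (83 with DESeq2, 341 without the filter, 0 to 77 with a library left out). Over the alternatives, log2 fold changes of members kept direction and side of the threshold in 954 cases, came to pass it in 43 and lost it in 19. The causes were not tested. Levels from the deposited normalized values moved by less than 1 SD in all 232 cases. Depth limits Ccl17, Cxcl9, Cx3cl1, Ccr7, Cx3cr1, Cxcr2 and Ackr3, which no edgeR comparison with a filter tested. The columns of each group are numbered 1 to 3, but no label says that a number is shared by animals or batches, and same-numbered libraries did not deviate from their group means together throughout (correlation over genes from -0.29 to 0.37), so the numbers were not taken to pair the samples. With the number as a replicate block, an alternative chosen after seeing the data, the members called were 17 in WT, 16 in miR-210 KO, 2 in M0 (Ccl8 and Ccr2), 4 in M2 (Cxcl2 and Ccr2 besides Cxcl1 and Cxcl14) and 0 for the interaction, and 284 genes were called in M0 and 289 in M2.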
